A study of Sus scrofa with 24 samples.

Results

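IGF1, IGFBP3, IGFBP5 and EGF were followed in the oxyntic mucosa, where the stomach makes its acid, of 24 piglets of 3 weeks of age. The 4 genes were chosen by name, as the transcript clusters whose symbol in the annotation table was one of them, and each had 1 cluster among the 10882 genes compared. IGF1 and EGF encode growth factors, whereas IGFBP3 and IGFBP5 encode proteins that bind insulin-like growth factors. Each piglet had 1 Affymetrix Porcine Gene 1.1 ST array, and the 4 groups of 6 were set by the early microbiota and by the diet. All piglets were artificially fed pigs of a (Great York x Pietrain) x 'Dalland' cross, born by caesarean section. All were given pasteurized sow colostrum and a starter of Lactobacillus amylovorus, Clostridium glycolicum and Parabacteroides. Complex association (CA) piglets then received diluted faeces of an adult sow, and simple association (SA) piglets a placebo. Each association was split over a control diet (CON) and a diet with medium chain triglycerides (MCT), in which, per the study, coconut oil replaced other oils. Pigs 1 to 6 formed the CA CON group and pigs 7 to 12 the CA MCT group, while the SA CON group held pigs 13 to 18 and the SA MCT group pigs 19 to 24. The labels describe separate rooms for the associations while the study describes rooms or pens with piglets of each group. If the rooms were separate, room and association cannot be told apart. Per the study, litters were spread over the groups, and the labels do not name the litter of a piglet. The protocol texts of the labels also describe jejunal samples of older pigs, so the tissue and age given here are those stated for every sample by itself. The design asked whether the association, the diet or their combination was accompanied by a different level of these genes.

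Insulin-like growth factor 1 is made mainly by the liver under growth hormone and also locally by connective tissue cells. It acts through the receptor IGF1R, and the related insulin receptor INSR can pair with it. Most of the hormone is held by binding proteins, which prolong its life in blood and tissue and limit its access to the receptor until proteases release it. Epidermal growth factor is made as a membrane precursor and acts on receptors of the ERBB family. In the stomach it is known for supporting the growth and repair of the epithelium and for restraining acid secretion.

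The tissue was first checked against its markers. The proton pump subunits ATP4A and ATP4B had mean log2 levels of 11.8 and 11.4, the pepsinogen genes PGA5 and PGC 12.0 and 11.2, and the mucous cell gene GKN2 12.1. The parietal cell gene CKMT2 and the chief cell gene BHLHA15 were lower, at 4.1 and 5.6. KRT5 and IVL of squamous epithelium were at 3.4 and 3.1, and the intestinal genes CDX1, CDX2, FABP2, SI and APOA4 at 2.0 to 3.5. The exceptions among genes of other tissues were the intestinal VIL1 at 7.5 and the pancreatic CPA1 at 7.9. Arrays correlated with one another at a median of 0.987 to 0.992 except 3, those of pig 4 in CA CON (0.946), pig 10 in CA MCT (0.975) and pig 22 in SA MCT (0.981). Median intensity per array was 23.13 to 26.44.

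None of the 4 genes passed the test in any of the 7 comparisons, where the test was limma with Benjamini-Hochberg adjustment over 10882 genes and passing meant an adjusted p under 0.05. The background was the same, since 0 genes, or 0.0%, passed in each comparison. At an unadjusted p under 0.05 there was 1 call among the 28 values of the members, IGFBP3 in CA against SA piglets on the CON diet. At that level were 4.25% of all genes in CA against SA on the CON diet, 2.66% on the MCT diet and 4.14% over both diets, then 3.0% in MCT against CON of CA piglets, 2.04% of SA piglets and 2.34% over both associations, and 2.53% in the interaction. A missed threshold does not show equal levels, and the 95% intervals below give the differences that remained possible. The RNA came from whole mucosa, so fewer cells of a type and less RNA per cell cannot be told apart.

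IGF1, the ligand, had log2 levels from 7.01 to 8.38 over the 24 piglets. In CA CON piglets the lowest, median and highest levels were 7.83, 7.96 and 8.38. In CA MCT piglets they were 7.50, 7.95 and 8.33. In SA CON piglets they were 7.01, 7.68 and 8.24. The SA CON group thus had the lowest piglet, pig 15, and the widest spread, and its range overlapped that of every other group. In SA MCT piglets the levels were 7.62, 7.75 and 8.27. Mean log2 levels (± SD, n = 6) ran from 8.04 ± 0.21 in CA CON through 7.90 ± 0.31 in CA MCT and 7.87 ± 0.27 in SA MCT to 7.72 ± 0.44 in SA CON. No neighbours in that order differed beyond their spread.

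On the CON diet the IGF1 level was 0.32 ± 0.17 (log2 difference ± SE, n = 6 and 6) higher in CA than in SA piglets. This equals 1.25-fold with a 95% interval of 0.98 to 1.59, and it did not pass (limma, adjusted p = 0.943). All 6 CA CON piglets lay above the SA CON median, while 4 of 6 SA CON piglets lay below every CA CON piglet. Without SA CON pig 15 the difference was 0.18. With MCT, CA and SA differed by 0.02 ± 0.17 (fold interval 0.80 to 1.30). MCT against CON gave a difference of -0.14 ± 0.17 in CA piglets and of 0.15 ± 0.17 in SA piglets. The difference between those values, the interaction, was -0.29 ± 0.24 on the log2 scale and did not pass (limma, adjusted p = 1.0). Without SA CON pig 15 the value in SA piglets was 0.012 and the interaction -0.151. In CA piglets it ran from -0.226 without CA MCT pig 12 to -0.06 without CA MCT pig 10.

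IGFBP3, the main carrier of IGF1 in blood, gave a dim signal. Its mean intensity of 10.4 placed it at the 30.2 percentile of all 27558 clusters, and the deposited table used here has no detection calls, so it is not known in which piglets it was above background. The log2 levels were 3.48, 3.54, 3.58, 3.36, 3.24 and 3.92 in CA CON pigs 1 to 6. They were 3.00, 3.23, 3.29, 3.10, 3.32 and 3.53 in SA CON pigs 13 to 18. Pig 6 was the highest of all and pig 13 the lowest, and 3 CA CON piglets lay above every SA CON piglet, so that the groups overlapped. In CA MCT piglets the lowest, median and highest levels were 3.29, 3.34 and 3.52. In SA MCT piglets they were 3.15, 3.36 and 3.55. Both MCT groups lay within the span of the CON groups. Mean log2 levels (± SD, n = 6) were 3.52 ± 0.23 in CA CON, 3.38 ± 0.09 in CA MCT, 3.37 ± 0.15 in SA MCT and 3.25 ± 0.18 in SA CON, and neighbours in that order did not differ beyond their spread.

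On the CON diet the mean IGFBP3 level of CA piglets exceeded that of SA piglets by 0.27 ± 0.10 (log2 difference ± SE), or 1.21-fold with a 95% interval of 1.05 to 1.40. The unadjusted p of limma was 0.0118 and the adjusted p 0.943. This was 1 of 4 members at an unadjusted p under 0.05, in a comparison in which 1.92% of all genes were higher at that level. The difference was between 0.19, without CA CON pig 6, and 0.33, without SA CON pig 18. With the arrays normalized by quantiles once more it was 0.20 ± 0.12 with an unadjusted p of 0.102 by limma, which ends the unadjusted call. The other settings that changed the processing or left out pigs 4, 10 and 22 had an unadjusted p of 0.00207 (array weights) to 0.0358 (own 12 arrays). The adjusted p of limma was 0.911 with renewed normalization and 0.62 to 0.977 over all these settings. With MCT the difference was 0.00 ± 0.10 (fold interval 0.87 to 1.16). Over both diets IGFBP3 was 0.14 ± 0.071 higher in CA piglets on the log2 scale (limma, adjusted p = 0.943). MCT against CON gave differences of -0.14 ± 0.10 in CA and 0.13 ± 0.10 in SA piglets, and the interaction was -0.27 ± 0.14 (limma, unadjusted p = 0.0697, adjusted p = 1.0). The value in CA piglets was -0.064 without CA CON pig 6, and that in SA piglets 0.077 without SA CON pig 13.

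IGFBP5, a binding protein that also attaches to the extracellular matrix, had the highest percentile of the 4 clusters (98.6 of all clusters). Its groups were close together. In CA CON piglets the lowest, median and highest log2 levels were 9.87, 10.03 and 10.15. In CA MCT piglets they were 9.88, 10.02 and 10.22. In SA CON piglets they were 9.29, 10.09 and 10.23. The low value of 9.29 was that of pig 18, and the next lowest piglet of that group was at 9.90. In SA MCT piglets the levels were 9.75, 9.99 and 10.12. The group means had a span of 9.97 ± 0.35 (SA CON) to 10.03 ± 0.12 (CA MCT) and 10.03 ± 0.09 (CA CON), and all groups overlapped.

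In each of the 7 comparisons the IGFBP5 difference was at most 0.06 on the log2 scale. On the CON diet CA minus SA was 0.06 ± 0.12, with a fold interval of 0.88 to 1.23. Without SA CON pig 18 it was -0.07. On the MCT diet CA minus SA was 0.05 ± 0.12 (0.88 to 1.23). For MCT against CON the difference was 0.00 ± 0.12 in CA piglets (0.85 to 1.18) and 0.01 ± 0.12 in SA piglets (0.85 to 1.19).

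EGF varied most among the members. The SD within groups was 0.49 on the log2 scale, or 1.40-fold, which exceeded that of 98.3% of the genes. The corresponding percentiles were 88.0 for IGF1 (SD 0.32), 52.6 for IGFBP5 (SD 0.20) and 34.5 for IGFBP3 (SD 0.17). In SA CON pigs 13 to 18 the EGF levels were 7.96, 7.89, 7.09, 7.19, 7.45 and 5.75. This group held both the highest and the lowest of the 24 piglets. Pig 18 had an intensity of 53.9, against a mean of 165.8 over all piglets. The SD of EGF in SA CON was 0.80 with this piglet and 0.40 without it, so the spread of EGF within groups leaned on it. The percentile of that spread without pig 18 was not computed. In CA CON piglets the lowest, median and highest log2 levels were 7.38, 7.46 and 7.91. In CA MCT piglets they were 6.74, 7.39 and 7.77. In SA MCT piglets they were 6.70, 7.48 and 7.76. No group was set off from another, and the group means given below did not differ beyond their spread.

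**Figure D1:**
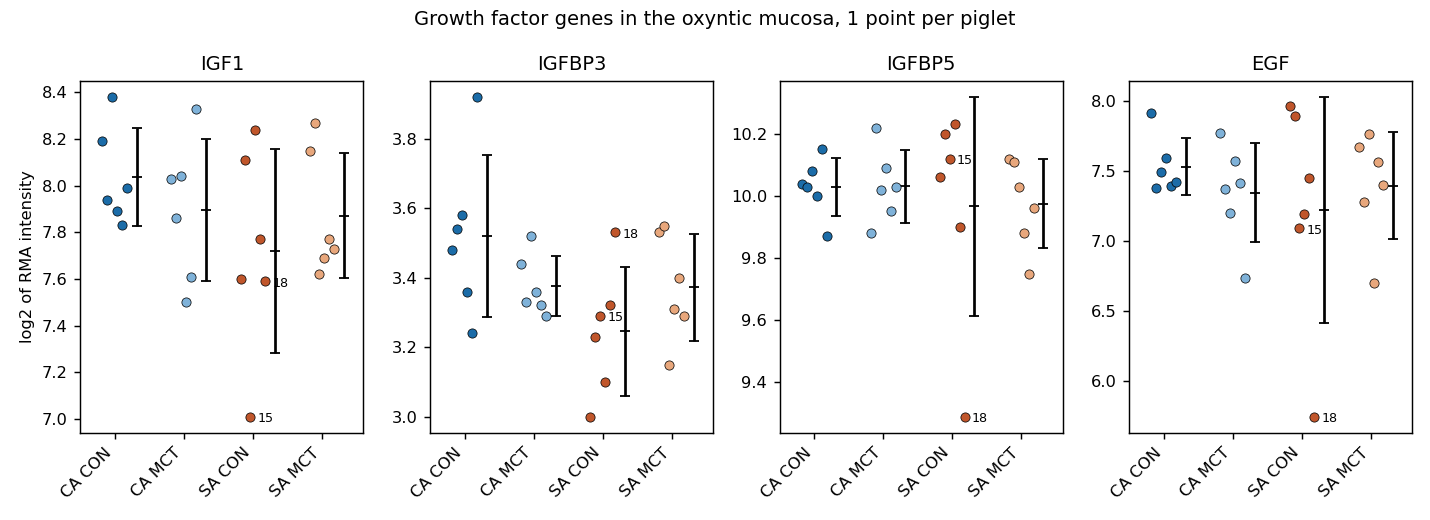
Log2 level of IGF1, IGFBP3, IGFBP5 and EGF (vertical axes, a separate scale for each gene) in the 24 piglets by group; points are piglets, numbers name single pigs, and bars are group means with 1 SD (n = 6). The groups overlap for each gene, and SA CON pig 18 lies lowest for EGF (5.75) and IGFBP5 (9.29).

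Mean EGF was 7.53 ± 0.20 in CA CON, 7.40 ± 0.38 in SA MCT, 7.35 ± 0.35 in CA MCT and 7.22 ± 0.80 in SA CON (log2 ± SD, n = 6). The CA CON group was 0.31 ± 0.26 higher than SA CON, or 1.24-fold with a 95% interval of 0.86 to 1.79, and did not pass (limma, adjusted p = 0.943). Without SA CON pig 18 the difference was 0.01. Over both diets CA minus SA was 0.13 ± 0.18, and without that piglet -0.02. Among MCT piglets CA minus SA was -0.05 ± 0.26 (fold interval 0.67 to 1.40). MCT minus CON was -0.18 ± 0.26 in CA and 0.17 ± 0.26 in SA piglets, and the latter was -0.12 without pig 18. The value in CA piglets was -0.062 without CA MCT pig 12. The interaction was -0.36 ± 0.37 (limma, adjusted p = 1.0), and -0.064 without SA CON pig 18.

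CA CON had the highest and SA CON the lowest group mean of the 4 for IGF1, IGFBP3 and EGF. For EGF this order rested on pig 18, without which the SA CON mean was 7.52, above both MCT groups. For IGF1 the lowest place of SA CON leaned on pig 15, without which its mean was 0.012 below that of SA MCT. The comparisons within a diet and within an association share these groups, so that they are not separate evidence. Over both associations the diets differed by 0.01 or less for each of the 4 genes, and the widest interval was that of EGF, from 0.77-fold to 1.29-fold.

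**Figure D2:**
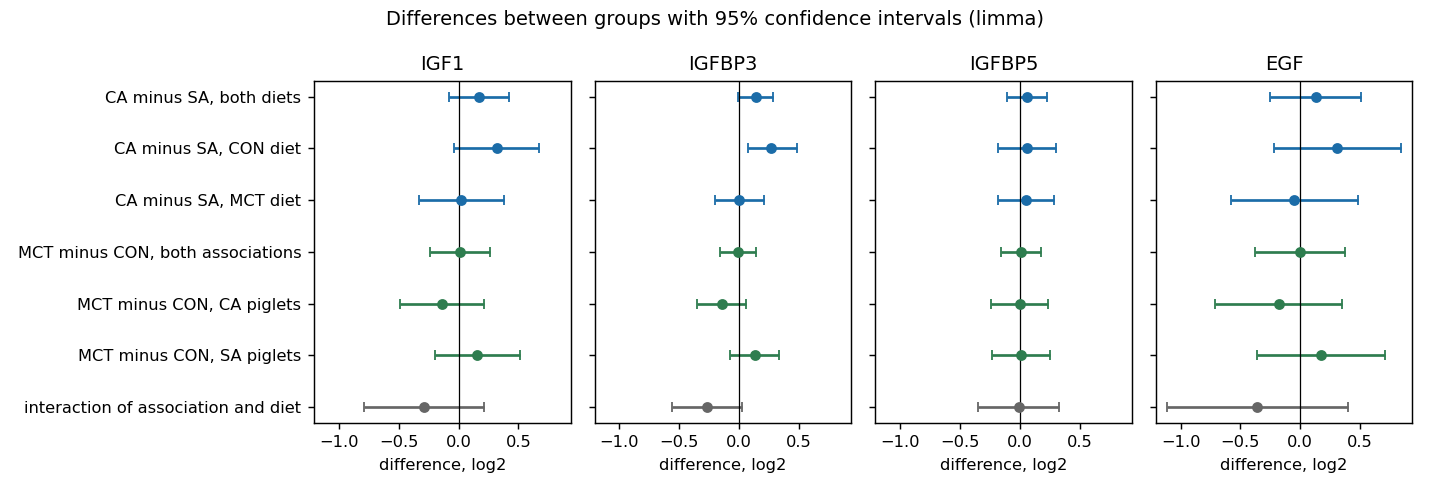
Log2 difference between groups for each of the 4 genes in the 7 comparisons, with 95% intervals from limma (n = 6 piglets per group); the horizontal axis is the log2 difference and 0 means no difference. Only the interval of IGFBP3 for CA minus SA on the CON diet (0.07 to 0.48) leaves out 0. Its adjusted p was 0.943. Its unadjusted p by limma was 0.102 with renewed quantile normalization and 0.00207 to 0.0358 in the other settings of the processing.

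Low EGF and low IGFBP5 met in the same piglet. Over the 24 piglets they had Pearson r = 0.60 (permutation p = 0.0167, adjusted p = 0.10 over 6 pairs) and Spearman rho = 0.05 (permutation p = 0.813, adjusted p = 0.814). Without the 2 piglets farthest from the median of IGFBP5, pigs 18 and 23, r was 0.11. Without pig 18 alone r was 0.05. The relation thus rested on that piglet. For values centred on the group means, with pig 18 still included, r was 0.60 (permutation, adjusted p = 0.0551) and rho 0.19 (permutation, adjusted p = 0.54).

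The other 5 pairs had Pearson r from -0.33 to 0.31 and adjusted permutation p from 0.271 to 0.468. IGF1 and IGFBP3 had r = 0.31 and rho = 0.33 (permutation p = 0.135 and 0.118, adjusted p = 0.271 and 0.32). Without pigs 3 and 15, the farthest from the median of IGF1, r was 0.25. Within groups this pair ran from r = -0.28 in SA CON to 0.92 in SA MCT, each over 6 piglets. IGFBP3 and IGFBP5 had r = -0.33 and rho = -0.32 (permutation p = 0.11 and 0.129, adjusted p = 0.271 and 0.32), with r between -0.83 and 0.34 within groups. Without pigs 6 and 13, the farthest from the median of IGFBP3, r was -0.32.

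Pig 18 was also the lowest of the 24 in the mean of the markers of parietal cells, the cells that secrete acid. The mean log2 level of the 9 measured markers was 8.36 in that piglet and 8.66 to 9.12 in the others. The piglet was lowest for ATP4A, at 11.56 against 11.66 to 11.92, and for the potassium channel gene KCNJ15, at 8.56 against 9.19 to 9.74. It was also lowest for KCNE2 and SLC26A7. Its rank from the lowest was 2 for ATP4B, AQP4 and KCNJ13, 4 for CKMT2 and 6 for GIF (10.17 against 8.61 to 10.98). Other lists also placed this piglet at an end. It was the lowest in the endothelial list, at 7.35 against 7.38 to 7.95, and second lowest in the fibroblast and myeloid lists. It was second highest in the intestinal list, with VIL1 at 8.11 against 6.96 to 7.84. The other intestinal genes were dim and went both ways in this piglet. CDX1, CDX2 and APOA4 were towards the top of the 24, and FABP2 and SI towards the bottom (SI at 1.76 against 1.74 to 2.76). Over all genes pig 18 had the lowest value of the 24 in 5.61%, against 25.5% for CA CON pig 4 and 2.43% for SA CON pig 15. EGF and the parietal cell mean had r = 0.63 (permutation p = 0.00587) and rho = 0.22 (permutation p = 0.293). Without pig 18 r was 0.24, and without the 2 piglets farthest from the median it was 0.19. The group ranges of the parietal cell mean were 8.82 to 9.08 in CA CON, 8.66 to 9.00 in CA MCT, 8.36 to 9.08 in SA CON and 8.68 to 9.12 in SA MCT. The part of these cell types in the EGF levels was not tested.

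**Figure D3:**
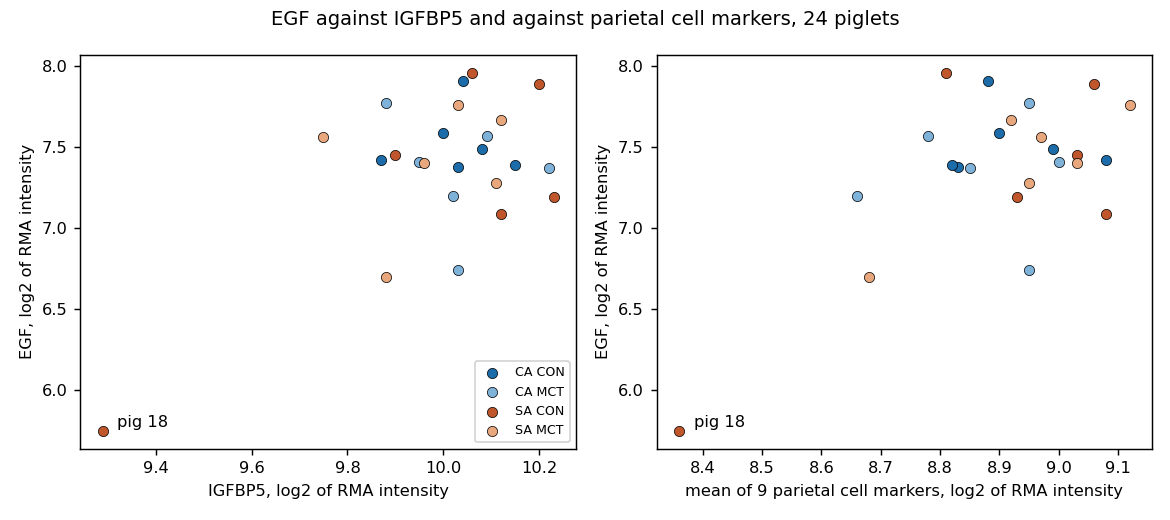
EGF log2 level (vertical axis) against the IGFBP5 log2 level and against the mean log2 level of 9 parietal cell markers (horizontal axes) in 24 piglets; each point is a piglet, coloured by group. SA CON pig 18 lies apart at the lower left of both panels, and without it r fell from 0.60 to 0.05 and from 0.63 to 0.24.

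The lists of other cell types were set beside the members over the 24 piglets by Spearman rho, as a description of arrays that share one normalization. The rho values given were the largest in size for each member, and no p was taken. For IGF1 rho was 0.59 with the myeloid list and 0.41 with the fibroblast list. The group means of the fibroblast list were 9.58 in CA CON and 9.43 in SA CON, with ranges of 9.47 to 9.65 and 9.06 to 9.73. The level of 9.06 was that of pig 15, the lowest piglet for IGF1. The group means of the myeloid list were 5.12 in CA CON and 5.18 in SA CON, and pig 15 was at 5.1, within the SA CON range of 5.0 to 5.37. IGFBP5 had rho of 0.51 with the myeloid and 0.47 with the chief cell list. IGFBP3 had rho of -0.51 with the chief cell list, whose mean was 9.53 in CA CON and 9.72 in SA CON. That list had 3 measured genes. BHLHA15 ranged from 4.56 to 6.76, PGC from 10.85 to 11.40 and PGA5 from 11.72 to 12.20. EGF had rho of 0.47 with the endothelial list and of -0.51 with the intestinal list, whose mean stayed between 3.46 and 3.89 in all piglets. The part of these cell types in the levels of the members was not tested.

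The 5 genes most like each member were named by the highest Spearman rho over the 24 piglets among 10881 genes. For IGF1 they were DAB2, an adaptor of endocytosis (0.78), COL15A1, a basement membrane collagen (0.78), OGFOD2 (0.75), MMP16, a membrane-bound matrix protease (0.74) and FOLR2, a folate receptor (0.72). For EGF they were WLS, which carries Wnt proteins to the cell surface (0.74), the kinase STK39 (0.69), CDKL1 (0.68), FNDC9 (0.65) and the ketone body enzyme OXCT1 (0.64). For IGFBP5 they were the water channel AQP2 (0.78), CADM4 (0.73), TBC1D2 (0.69), FKBP11 (0.68) and SEMA5B (0.67). For the dim IGFBP3 they were IQCB1 (0.63), LGI1 (0.61), RCCD1 (0.59), TAGAP (0.59) and CD8A (0.56). These lists are descriptive, and the ranking changed with the settings. With values centred on the groups, 1 of 5 remained for IGF1, 0 for IGFBP3, 2 for IGFBP5 and 3 for EGF.

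Beyond the members, 114 genes of the same pathways had been listed, of which 81 had a cluster under their symbol here. IGF2, IGF2R, IGFBP2, EGFR and IRS2 were among the others and were not analysed here. None of the 81 passed in any comparison. On the CON diet 6 of 81 (7.41%) differed between CA and SA at an unadjusted p under 0.05, against 4.25% of all genes. The share was 6.17% over both diets (4.14% of all genes) and 1.23% on the MCT diet (2.66%). For MCT against CON it was 4.94% over both associations (2.34%), 3.7% in SA (2.04%) and 0.0% in CA piglets (3.0%). In the interaction it was 0.0% (2.53%).

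Among the receptors and proteases of the IGF axis, INSR, the insulin receptor, stood out on the CON diet by its values. Its log2 levels ran from 7.55 to 7.70 in CA CON and from 7.20 to 7.53 in SA CON piglets, so that the groups did not overlap. It was 1 of 81 listed genes with levels in CA CON above all of SA CON, against 0.0919% of all genes. The difference was 0.20 ± 0.079 (limma, unadjusted p = 0.0171, adjusted p = 0.943). The INSR difference among MCT piglets was 0.08 ± 0.079. PAPPA2, a protease that cleaves IGFBP3 and IGFBP5, had a difference of 0.50 ± 0.22 on the CON diet, with levels of 4.17 to 5.07 in CA CON and 3.58 to 4.32 in SA CON piglets that overlapped (unadjusted p = 0.0348 and adjusted p = 0.943 by limma). The binding protein family member IGFBP7 had 0.16 ± 0.08 there, and IGF1R had -0.03 ± 0.11.

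Of the 26 measured genes of the IGF axis other than the members, 7 had a higher and 19 a lower mean in CA than in SA piglets on the CON diet. The median difference was -0.026, against 0.00 over all genes, of which 49.9% were higher. Without pigs 4, 10 and 22 the counts were 14 and 12. On the MCT diet 16 were higher and 10 lower, against 48.1% higher of all genes. For MCT against CON 16 of 26 were higher in CA piglets, against 50.5% of all genes, and 10 of 26 without pigs 4, 10 and 22. In SA piglets 17 of 26 were higher, against 52.5%. The 5 measured growth hormone axis genes had lower means in CA than in SA on each diet, with medians of -0.035 (CON) and -0.131 (MCT). Of all genes 49.9% (CON) and 48.1% (MCT) were higher in CA. The 5 had higher means on MCT than on CON in each association, with medians of 0.074 (CA) and 0.11 (SA), against 50.5% and 52.5% of all genes. Some differences were near 0, such as STAT5A with -0.03 (CON) and -0.02 (MCT) for CA minus SA. Counts without pigs 4, 10 and 22 were not taken for this list. None of the 5 passed, and the comparisons share their groups. The growth hormone receptor gene GHR had a difference of 0.18 ± 0.078 for MCT over CON in SA piglets (log2 ± SE; limma, unadjusted p = 0.0327, adjusted p = 1.0) and 0.07 ± 0.078 in CA piglets. CISH, a feedback inhibitor of growth hormone signalling, had a difference of -0.21 ± 0.086 between CA and SA over both diets (limma, unadjusted p = 0.0251, adjusted p = 0.943).

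Of the 21 measured EGF axis genes other than EGF, 19 had a higher mean in MCT than in CON piglets of the simple association. Their median log2 difference was 0.119, against 0.006 over all genes, of which 52.5% were higher. None of the 21 passed, and none had an unadjusted p under 0.05, against 2.04% of all genes. In CA piglets 15 of 21 were higher on MCT, with a median of 0.063 and 50.5% over all genes. Without pigs 4, 10 and 22 the counts were 18 and 13 of 21, with medians of 0.11 and 0.017, and without pig 18 the count in SA piglets was 19. Both counts describe genes that share the same arrays. The ligand genes AREG, EREG, NRG1 and NRG3 among them were dim, with mean log2 levels per group of 2.41 to 3.5.

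**Figure D4:**
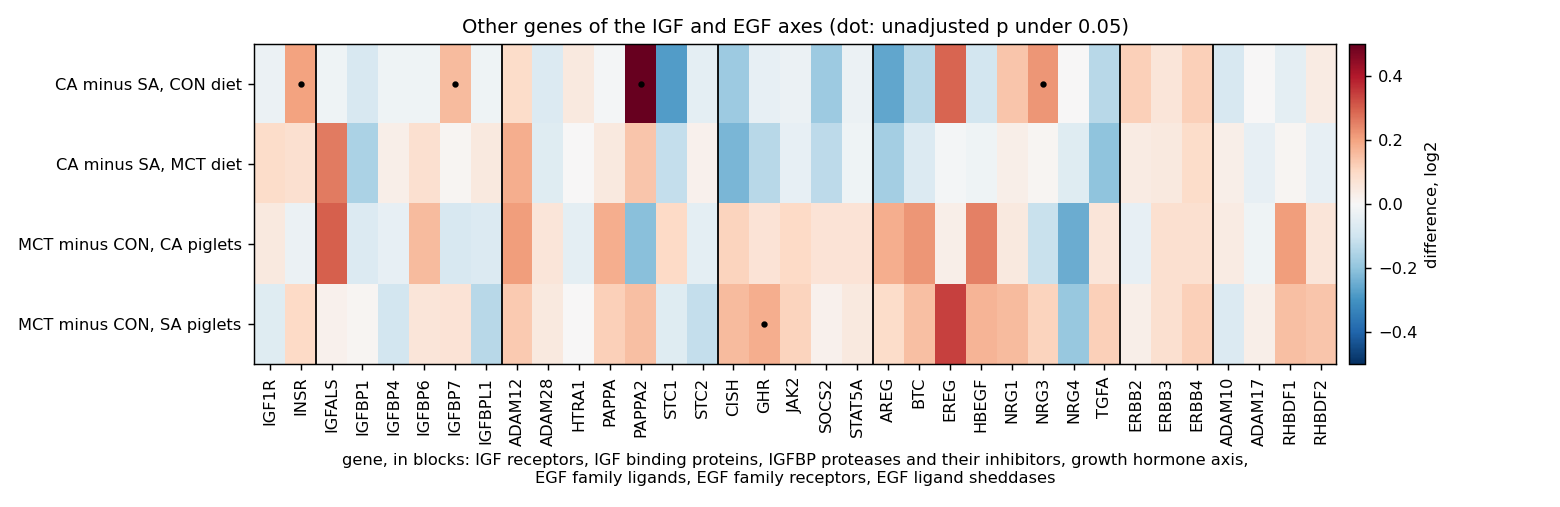
Colour map of log2 differences (scale from -0.4 to 0.4 and beyond, red higher and blue lower in the group named first) for measured IGF and EGF axis genes in blocks by role, without the members, receptor adaptors and receptor feedback genes; the rows are 4 comparisons within a diet or an association (n = 6 piglets per group), and dots mark an unadjusted p under 0.05. Dots are on INSR, IGFBP7, PAPPA2 and NRG3 for CA minus SA on the CON diet and on GHR for MCT minus CON in SA piglets, and none of these genes passed after adjustment.

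The ligands and receptors of the EGF family were read singly. The dim epiregulin (EREG) had the highest difference for MCT over CON in SA piglets, 0.34 ± 0.17 (limma, unadjusted p = 0.0628, adjusted p = 1.0). Its levels were 2.52 to 2.78 on CON and 2.69 to 3.69 on MCT. It is not known in which piglets EREG was above background. Heparin-binding EGF-like growth factor (HBEGF) had 0.25 ± 0.17 in CA and 0.17 ± 0.17 in SA piglets. Neuregulin 4 (NRG4) went the other way, with -0.22 ± 0.095 over both associations (limma, unadjusted p = 0.0296, adjusted p = 1.0). RHBDF1, a regulator of the protease ADAM17 that releases EGF family ligands, had 0.18 ± 0.087 for MCT over CON (unadjusted p = 0.0478 and adjusted p = 1.0 by limma). These were 2 of the 21 genes at an unadjusted p under 0.05, against 2.34% of all genes. The receptor genes ERBB2, ERBB3 and ERBB4 had differences of -0.00, 0.08 and 0.10 between the diets over both associations.

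Between CA and SA piglets on the CON diet the dim neuregulin 3 (NRG3) had the smallest p of the listed genes, with 0.22 ± 0.077 (limma, unadjusted p = 0.00717, adjusted p = 0.943) and levels of 2.42 to 2.77 against 2.30 to 2.53. The means of ERBB2, ERBB3 and ERBB4 were 0.12, 0.06 and 0.12 higher in CA on that diet, while TGFA, the EGF-like ligand transforming growth factor alpha, had -0.14. None of these passed.

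Downstream of both receptor families, the PI3K and AKT list had 4 genes higher and 7 lower in CA against SA piglets on the CON diet. Its median difference was -0.021, and 49.9% of all genes were higher. On the MCT diet 6 were higher and 5 lower, against 48.1% higher of all genes. The kinase gene RPS6KB1, whose product phosphorylates a ribosomal protein, had -0.16 ± 0.076 on the CON diet and -0.12 ± 0.054 over both diets (limma, unadjusted p = 0.0326, adjusted p = 0.943). FOXO3, a transcription factor that AKT keeps out of the nucleus, had 0.21 ± 0.081 for CA over SA on the MCT diet (limma, unadjusted p = 0.0156, adjusted p = 1.0) and 0.03 ± 0.081 on the CON diet. It was 1 of 81 at that level on the MCT diet, against 2.66% of all genes. The early response gene DUSP1, a phosphatase that ends MAP kinase signalling, had -0.41 ± 0.19 for CA against SA on the CON diet, with overlapping levels of 6.64 to 7.56 and 6.83 to 8.51. Among other mucosal growth factors, TGFB1 had 0.29 ± 0.12 for MCT over CON in SA piglets (unadjusted p = 0.0287 and adjusted p = 1.0 by limma) and 0.09 ± 0.12 in CA piglets.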

How the data were processed

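RNA of the oxyntic mucosa of 24 piglets was hybridized by the authors to Affymetrix Porcine Gene 1.1 ST arrays, 1 per piglet. The authors summarised the scans by Robust Multichip Analysis (background correction, quantile normalization and probe summary), and the deposited intensity was on a linear scale, of which log2 was taken. The normalization brings the arrays towards a common distribution, so a shift of all genes cannot be read from the values. The deposited arrays were still not fully alike, with median intensities of 23.13 to 26.44. CA CON pig 4 had the lowest value of the 24 in 25.5% of genes. Of 27558 clusters, 11939 carried 1 gene symbol, 416 several and 15203 none in the annotation table. For 958 symbols with several clusters the brightest was kept, which left 10882 genes. The groups came from the sample titles.

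All arrays entered 1 model of the 4 group means in limma 3.58.1 (R 4.3.3), with 20 residual degrees of freedom, moderated statistics and Benjamini-Hochberg adjustment over 10882 genes. The 7 comparisons were CA against SA and MCT against CON, each over both and within each level of the other factor, and the interaction (CA minus SA on MCT less that on CON). The study's gene set test was not run. Correlations were tested by 100000 permutations in numpy 2.4.6, two-sided, with ranks from scipy 1.17.1. The number of arrays limits the precision. Groups shared litters per the study, but the labels name no litter, sex, pen or scan date for a piglet, so none entered the model, and p-values take piglets as independent.

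Genes named were the 4 members, of each pathway list those passing and those with the highest and lowest moderated t, EGF and IGF family ligands and receptors, and the 5 genes most like each member. Some of these genes were also given in comparisons where the rule did not name them, after their values were seen. The members and lists were chosen with earlier results of these data known. Alternatives were the mean of all clusters of a symbol, leaving out the 40% dimmest clusters, array weights, renewed quantile normalization, an intensity trend, all clusters, separate fits, and leaving out piglets. The settings without pig 18 and the list counts without pigs 4, 10 and 22 were added after the data were seen. RNA extraction is given differently by the labels and the study.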

Additional observations from a re-analysis of the deposited data

Results flagged for a closer look

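Among the 16 sets of 6 values, 4 genes in 4 groups, 1 had a sample far from the others. IGFBP5 in SA CON pig 18 had a log2 level of 9.29, and the nearest other piglet of its group was at 9.90. The gap was 0.649 of the range of the group, above the critical value of 0.625. Chance gives about 1 such set in 20. The same piglet had the lowest EGF level, 5.75, which did not reach the critical value.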

How the results depend on the processing

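Under settings other than leaving out 1 piglet, 205 values of the members were recomputed. No value passed (lowest adjusted p of limma 0.594), 194 kept their direction and 11 reversed. With array weights IGFBP5 was -0.004 for CA minus SA on the CON diet, -0.009 for MCT minus CON over both associations, -0.028 in SA piglets and 0.038 in the interaction. IGFBP3 with array weights was -0.006 for CA minus SA on the MCT diet and 0.002 for MCT minus CON over both associations. With renewed quantile normalization these IGFBP3 values were -0.024 and 0.005. Without pigs 4, 10 and 22 IGFBP3 was -0.004 for CA minus SA on the MCT diet, EGF 0.048 for MCT minus CON over both associations, and IGFBP5 -0.014 for MCT minus CON in CA piglets. The main values of these results lay within 0.06 of 0 after rounding, and the cause was not tested. Without the 40% dimmest clusters IGFBP3 had no value.

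With 1 piglet left out, 65 of 672 member values reversed and none passed (lowest adjusted p 0.85). For CA minus SA over both diets the ranges were -0.009 to 0.085 (IGFBP5) and -0.018 to 0.203 (EGF). On the CON diet IGFBP5 ran from -0.073 to 0.115. On the MCT diet IGF1 ran from -0.063 to 0.105, IGFBP3 from -0.04 to 0.039 and EGF from -0.188 to 0.071. For MCT minus CON over both associations the ranges were -0.063 to 0.06 (IGF1), -0.037 to 0.031 (IGFBP3), -0.061 to 0.033 (IGFBP5) and -0.151 to 0.07 (EGF). IGFBP5 ran from -0.035 to 0.033 in CA and from -0.125 to 0.063 in SA piglets, EGF from -0.119 to 0.322 in SA piglets, and IGFBP5 from -0.061 to 0.128 in the interaction.

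The count of all genes past the threshold, 0 in each comparison, became 1 with array weights for CA minus SA over both diets (RNF5) and on the MCT diet (PSMA4). With 1 piglet left out it was 0 to 1 on the MCT diet, the 1 being PSMA4 without SA MCT pig 22. No paired analysis was possible because each piglet had its own number and its litter is not named in the labels.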
